A study of Rattus norvegicus with 4 samples.

Results

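Solute carriers are the membrane proteins that move sugars, amino acids, organic acids, vitamins and ions across the surface of a cell and between its compartments. Their genes were read from colon arrays of rats of the control group and of the group given mesenchymal stem cells (MSCT group). Members were all genes whose RefSeq transcript carries a symbol that starts with Slc, with a value on all 4 arrays. Slc26a3, Slc9a2, Slc9a3, Slc12a2, Slc11a2 and Slc40a1 were left out. This gave 175 genes of the 6968 measured genes with a name, from 178 measured rows. The 3 genes with several rows were read from the row with the highest mean. Of the 434 symbols that the RefSeq gene table holds under this rule, 52 had rows that were blank on all 4 arrays and 207, Slc7a15 and Slc37a2 among them, were matched to no row by accession. Those genes are not analysed here, and any order of size holds for the 175 genes alone.

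All 4 samples were total RNA of colon tissue of male rats, read on 1 array each, with 2 samples a group. Nothing in the sources used here says that the samples of a group came from separate rats, so p-values measure the spread between these samples, which may be technical. Colitis was induced in the study with 2,4,6-trinitrobenzene sulfonic acid (TNBS), given in ethanol into the colon of Sprague Dawley rats. Rats of the MSCT group had received green fluorescent protein-labeled mesenchymal stem cells into the tail vein after colitis was induced. Rats of the control group had no transplantation, and the study names saline as their treatment. The methods of the study describe the compared tissue as colitis tissue. Its results name the control of the chips an inflammatory bowel disease (IBD) control group. The sample labels, however, call the control animals normal. The study thus presents the controls as animals with colitis and the labels do not, a conflict that is not resolved here. The study gives different days after transplantation in different places, and the labels give none. Pieces of colon wall hold epithelium, muscle, nerves and immune cells together, and fewer cells of a type and less RNA per cell cannot be told apart in such samples.

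In the colon, carriers of the luminal border take up short-chain fatty acids, vitamins and salt, and carriers of the opposite side pass them to the blood. Amino acid and glucose carriers of all cells supply growth and energy, and a large family sits in the mitochondrial membrane. Many carriers work as exchangers or depend on the sodium gradient of the sodium pump, so the direction of transport is not given by the amount of RNA.

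Median intensities of the arrays lay between 848 and 893 on the linear intensity scale. Epithelial markers of the labelled tissue were present on every array, with 10 of 14 measured and a summed level from 17.34 to 17.54 on the log2 scale. Control replicate 1 stood apart from the other arrays in part of the carrier genes. Of 175 carriers, 23 lay more than 2-fold apart between the control arrays, and 19 of these were lower in control replicate 1. All 23 were in the lower 50% of rows by mean intensity, but that mean includes the low array itself. Over the 175 carriers, as a description across genes, Pearson's r was 0.94 between the control arrays, 0.968 between the MSCT arrays and 0.956 between control replicate 2 and MSCT replicate 2. Genes past the screen are therefore described with single arrays left out too.

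The groups were compared with limma, a linear model for log2 intensity in which each row borrows part of its variance from the other rows. A gene was called past the screen if its unadjusted p was under 0.05 and its fold change over 2, the limits that the study used for its chips. The words rose and fell are kept for genes past the screen. Of 175 carriers, 14 passed it (8%), where 4.63% of all 18350 measured rows and 4.91% of all named genes did. The 14 were evenly divided, with 7 higher in the MSCT group (2.12% of all rows, 3.13% of named genes) and 7 lower (2.51% of all rows, 1.78% of named genes). In all 14 the values of the groups were fully separate, as in 94 of the 175 carriers (53.7%), in 45.8% of all rows and in 47.9% of named genes. An unadjusted p under 0.05 was found for 28 carriers (16%), against 12.0% of all rows and 12.3% of named genes. Of these, 15 were higher (4.80% of all rows, 6.82% of named genes) and 13 lower (7.17% and 5.44%). After Benjamini-Hochberg adjustment over all rows, 0 carriers passed 0.05 by limma, as did 0.00% of all rows and of named genes. The count was also 0 by the methods' t-test, the plain test with equal variances that one-way analysis of variance gives for 2 groups. The smallest adjusted p of a carrier was 0.257 by limma. By the methods' t-test 20 of the 175 carriers had an unadjusted p under 0.05, against 9.66% of all rows and 11.0% of named genes. Of the 175, 3 passed both limits (Slc36a1, Slc20a1 and Slc12a8). That is a lower share than the 2.11% of all rows and the 2.34% of named genes. Past both limits of this test were 388 rows, 191 higher and 197 lower. The study reports the same counts of genes for the MSCT group against its IBD control group. With 2 samples a group, the smallest two-sided p of an exact permutation test is 0.333. The median difference of the 175 carriers, MSCT minus control, was 0.11 on the log2 scale, beside -0.02 for all rows and 0.05 for all named genes. Of the 175 carriers, 103 lay higher in the MSCT group and 72 lower. Of all 18350 rows 8809 were higher and 9541 lower, and of the 6968 named genes 3885 and 3083.

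**Figure D1:**
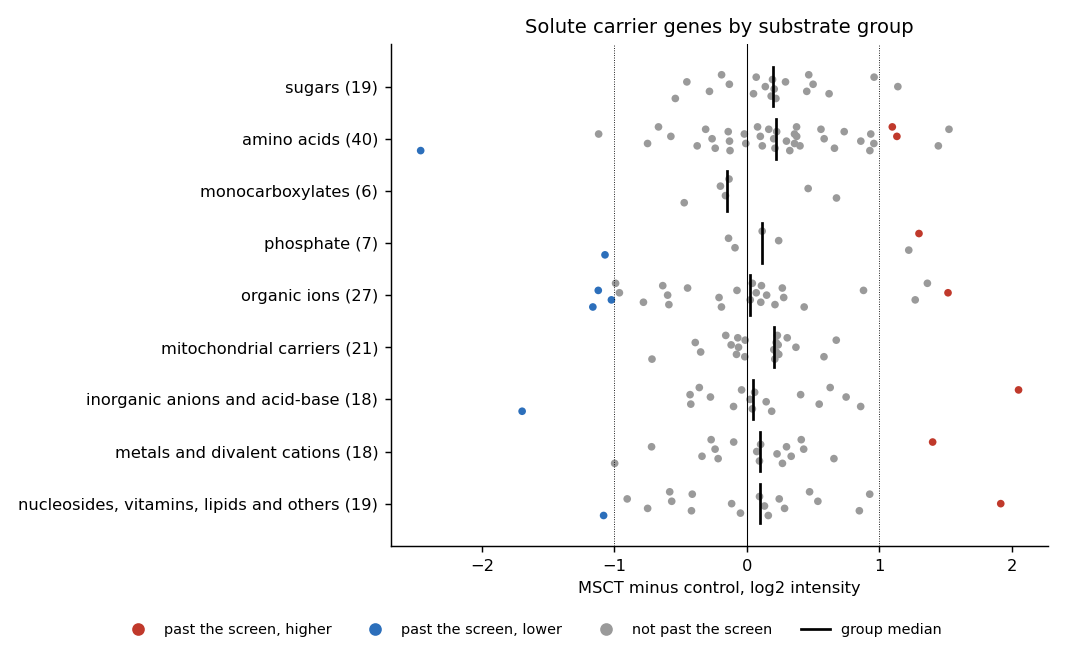
Difference between the MSCT and control groups in log2 intensity for each of the 175 solute carrier genes (horizontal axis), with 1 row per substrate group and the number of genes in parentheses. Red and blue points passed the screen, black bars are group medians and dotted lines mark 2-fold. Genes past the screen lie in 6 of the 9 groups, and group medians lie between -0.15 and 0.22.

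The genes of the 175 with the largest fall and the largest rise, and 3 others that hold a shared motif, are shown by the 250 bases before the transcription start of the RefSeq gene. They are given from 5′ to 3′ in the direction of the gene, from the RefSeq promoter table of GRCr8, which held a start for 143 of the 175 carriers. Slc36a1 lies at chr10:39824785-39825034 (plus strand), Slc12a8 at chr11:80770916-80771165 (minus strand), Slc1a4 at chr14:98761563-98761812 (minus strand), Slc7a5 at chr19:66872413-66872662 (minus strand) and Slc9a5 at chr19:50136490-50136739 (plus strand). Capitals mark the motif CACGTG (an E-box, which reads the same on both strands) and the motif TGATGNAA on either strand, the core of a composite element known for amino acid response. The motifs do not overlap each other.
Slc36a1: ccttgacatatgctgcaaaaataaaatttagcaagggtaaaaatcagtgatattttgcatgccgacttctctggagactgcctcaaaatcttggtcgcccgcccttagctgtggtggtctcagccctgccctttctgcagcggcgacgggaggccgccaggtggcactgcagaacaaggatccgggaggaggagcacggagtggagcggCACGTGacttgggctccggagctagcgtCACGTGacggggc
Slc12a8: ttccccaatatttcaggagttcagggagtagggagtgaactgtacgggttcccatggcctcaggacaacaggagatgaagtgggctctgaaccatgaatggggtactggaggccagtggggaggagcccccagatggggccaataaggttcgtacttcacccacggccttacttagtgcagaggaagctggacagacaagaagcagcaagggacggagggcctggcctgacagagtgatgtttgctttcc
Slc1a4: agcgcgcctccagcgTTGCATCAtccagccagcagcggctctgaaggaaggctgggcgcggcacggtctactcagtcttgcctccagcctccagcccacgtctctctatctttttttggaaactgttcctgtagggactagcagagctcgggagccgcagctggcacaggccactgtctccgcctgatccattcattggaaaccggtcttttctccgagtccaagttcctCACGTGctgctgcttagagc
Slc7a5: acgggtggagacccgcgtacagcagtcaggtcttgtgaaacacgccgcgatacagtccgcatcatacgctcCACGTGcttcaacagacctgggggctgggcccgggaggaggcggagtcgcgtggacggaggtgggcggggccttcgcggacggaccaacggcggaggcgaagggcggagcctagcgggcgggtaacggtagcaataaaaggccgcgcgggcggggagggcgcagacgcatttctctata
Slc9a5: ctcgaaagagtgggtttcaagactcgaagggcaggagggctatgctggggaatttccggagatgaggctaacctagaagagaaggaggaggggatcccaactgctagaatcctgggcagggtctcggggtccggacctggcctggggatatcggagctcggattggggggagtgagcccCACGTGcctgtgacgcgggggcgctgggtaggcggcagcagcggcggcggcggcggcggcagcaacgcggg
The E-box was present 2 times before Slc36a1, with its first base 41 and 13 bases before the start, and 1 time each before Slc1a4 (20 bases), Slc7a5 (179 bases) and Slc9a5 (71 bases). Slc1a4 also held the composite motif on the opposite strand, 235 bases before the start. Neither motif was in the window of Slc12a8. CACGTG was in 22 of the 149 windows of carrier genes (14.8%), in 7.77% of the windows of all measured named genes and in 5.59% of all windows in the table. TGATGNAA was in 2.68%, 2.2% and 3.4% of the same windows. Of the 14 genes past the screen, 9 had a window, and CACGTG was in those of Slc36a1 and Slc9a5, which fell, and of Slc1a4, which rose. The motifs and windows were chosen after the values were seen, and a match describes letters and not binding.

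**Figure D2:**
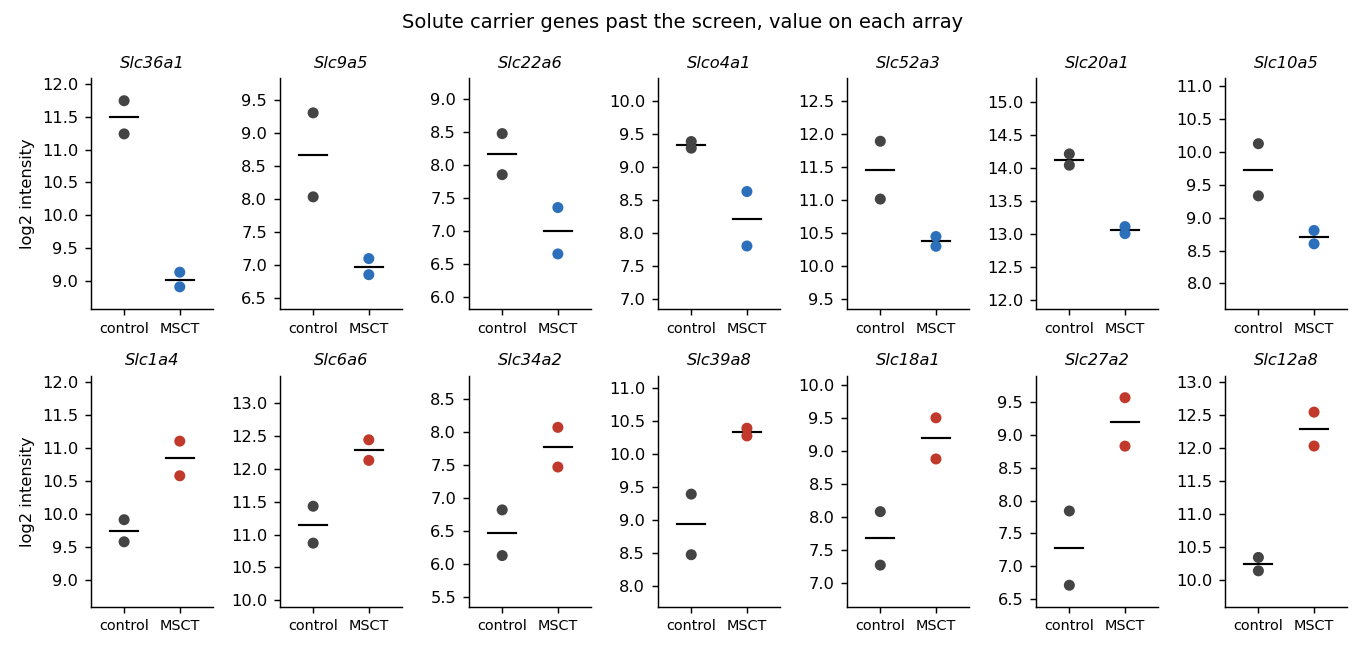
Log2 intensity of the 14 solute carrier genes past the screen on the 2 control arrays (grey) and the 2 MSCT arrays (blue for genes that fell, red for genes that rose), with a bar at each group mean. The vertical axes span the same range in every panel but start at different values. In every panel both MSCT arrays lie on 1 side of both control arrays, and the control arrays of Slc9a5 and Slc27a2 lie more than 2-fold apart.

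Among the 40 measured carriers of amino acids, peptides and related transmitters, 26 lay higher in the MSCT group and 14 lower, at a median log2 difference of 0.22. Of these, 2 rose (Slc6a6 and Slc1a4) and 1 fell (Slc36a1), and limma gave 7 an unadjusted p under 0.05, 5 of them higher. Slc36a1 (NM_130415) encodes a proton-coupled carrier of small neutral amino acids in lysosomes and the intestinal border. It had intensities of 3421 and 2413 in the control samples and of 563 and 483 in the MSCT samples. Both MSCT arrays lay far below both control arrays. The fall was 5.51-fold, a log2 difference of -2.46 (standard error 0.26, limma adjusted p = 0.257), and it lay between -2.71 and -2.21 with single arrays left out. Slc36a1 was past the screen in each of these fits and had the largest change of all 175 carriers.

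Slc6a6 (NM_017206), the taurine carrier, had intensities of 1871 and 2757 in the control samples and of 5544 and 4465 in the MSCT samples. It rose 2.19-fold (log2 difference 1.13, standard error 0.28, limma adjusted p = 0.324). Slc1a4 (NM_198763), a sodium-dependent carrier of alanine, serine and cysteine, had intensities of 763 and 963 in the control samples and of 2199 and 1528 in the MSCT samples. It rose 2.14-fold (1.10, standard error 0.28, limma adjusted p = 0.324). In both genes the MSCT arrays lay above the control arrays, and the difference was under 2-fold without control replicate 1 (Slc6a6 0.85, Slc1a4 0.93) and without MSCT replicate 1 (0.98 and 0.83).

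A further 3 amino acid carriers were higher by less than 2-fold with an unadjusted p under 0.05. Slc7a5, the light chain of the main carrier of large neutral amino acids, had intensities of 975 and 981 in the control samples and of 2155 and 1620.5 in the MSCT samples (log2 difference 0.93, standard error 0.23). Its control arrays were nearly equal, and both MSCT arrays lay above them. Slc3a2, the heavy chain that pairs with Slc7a5 at the cell surface, differed by 0.36 (standard error 0.19, limma adjusted p = 0.523), also with both MSCT arrays above the control arrays. Slc1a5, the glutamine carrier related to Slc1a4, had intensities of 4135 and 4605 in the control samples and of 6944 and 6851 in the MSCT samples (0.66, standard error 0.19). Slc15a4, which moves histidine and small peptides out of endosomes and lysosomes, had intensities of 677 and 768 in the control samples and of 1243 and 1156 in the MSCT samples (0.73, standard error 0.19). For Slc1a5 and Slc15a4 the replicates lay close together and the groups apart. On the lower side, Slc6a4, the serotonin carrier that ends serotonin signaling, had intensities of 1903 and 2215 in the control samples and of 1503 and 1113 in the MSCT samples (-0.67, standard error 0.24, limma adjusted p = 0.411).

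All 6 measured members of family 1, the sodium-dependent glutamate and neutral amino acid carriers, were higher in the MSCT group, as were 103 of all 175 carriers. Their differences lay between 0.22 (Slc1a1) and 1.52 (Slc1a2), and they were also higher after quantile normalization and with equal array medians. This did not hold with single arrays left out, as Slc1a1 was at -0.10 without control replicate 1. The groups overlapped for Slc1a1 and Slc1a3. This family was singled out after its values were seen. Only Slc1a4 and Slc1a5 had an unadjusted limma p under 0.05 in it. Slc1a2, a glutamate carrier of glia with the highest difference of the amino acid group, had intensities of 76.6 and 325 in the control samples and of 499.8 and 412 in the MSCT samples (limma adjusted p = 0.495). Its difference rested mostly on the low value of control replicate 1, at 0.48 without that array. Slc38a3, a glutamine carrier, had intensities of 128 and 1463 in the control samples and of 1016 and 1360.3 in the MSCT samples, and its difference of 1.44 turned to -0.32 without control replicate 1. Slc38a5, of the same family, had intensities of 643 and 396 in the control samples and of 157 and 345 in the MSCT samples (-1.12, standard error 0.48, limma adjusted p = 0.465). The rows of Slc36a1, Slc6a6, Slc1a4, Slc7a5, Slc1a5 and Slc15a4 all lay in the upper 50% by mean intensity. Those of Slc1a2, Slc1a3 and Slc1a6 lay in the lowest 25%.

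**Figure D3:**
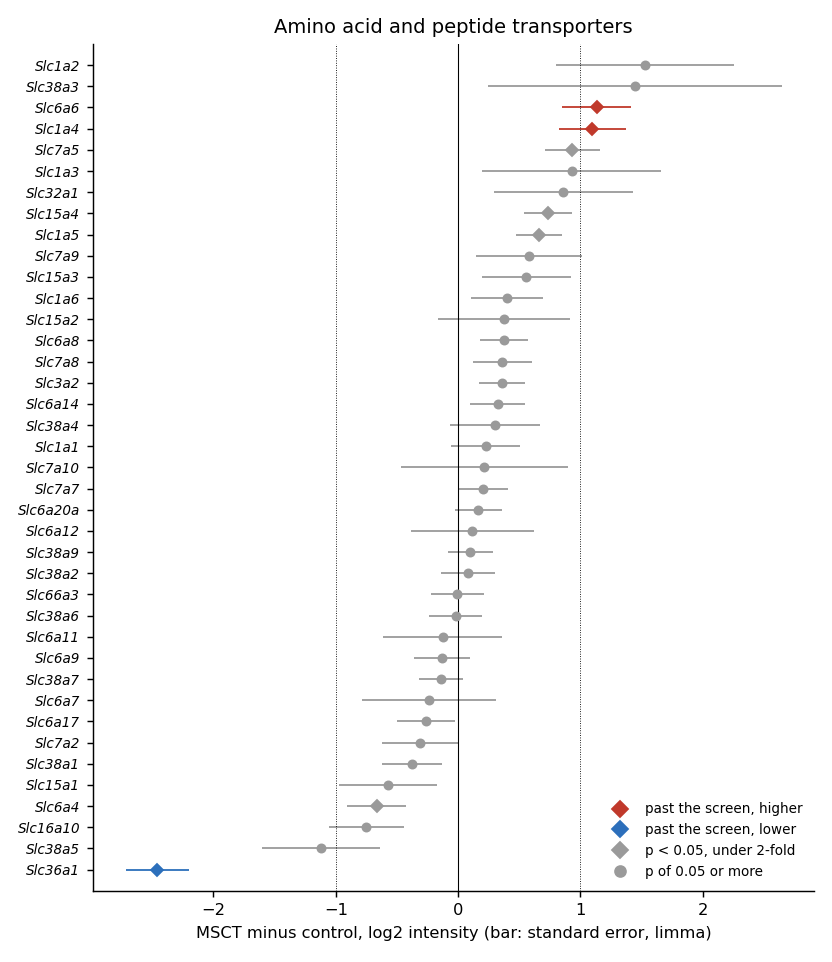
Difference between the MSCT and control groups in log2 intensity for 39 of the 40 measured carriers of amino acids, peptides and related transmitters, sorted by size, with the standard error of limma as bars. Diamonds mark an unadjusted p under 0.05, color marks the screen and dotted lines mark 2-fold. Slc36a1 at -2.46 is the lowest, and the widest bar belongs to Slc38a3.

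No sugar carrier passed the screen. Of 19 measured genes of the glucose, sodium-glucose, sugar-phosphate and nucleotide-sugar families, 14 were higher and 5 lower in the MSCT group (median difference 0.19). Slc2a1, the widely expressed glucose carrier, had intensities of 17414 and 21420.5 in the control samples and of 22462 and 21399.8 in the MSCT samples (0.18, standard error 0.21). Slc5a1, the sodium-glucose cotransporter of the intestinal border, had intensities of 3382 and 4509.9 in the control samples and of 2544 and 3199 in the MSCT samples (-0.45, standard error 0.25, limma adjusted p = 0.538). Slc2a4, the insulin-responsive glucose carrier, was the lowest of the group at -0.54. Slc2a2, the low-affinity glucose carrier of liver, kidney and small intestine, had intensities of 203 and 935 in the control samples and of 1040.2 and 885 in the MSCT samples. Control replicate 1 alone was low for Slc2a2, and the difference of 1.14 was 0.04 without it.

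The sugar genes with an unadjusted limma p under 0.05 were both of family 35. This family is named for carriers of nucleotide sugars, which not all of its members are known to carry. Slc35a3, the carrier of the nucleotide sugar for N-acetylglucosamine, had intensities of 1915 and 1628 in the control samples and of 2809 and 2621 in the MSCT samples (0.62, standard error 0.20). Slc35e4, a member without an established substrate, had intensities of 1169 and 1512 in the control samples and of 2591 and 2578 in the MSCT samples (0.96, standard error 0.22), just under 2-fold. In both the groups lay apart, and of the 7 measured members of the family 6 were higher, Slc35f6 being the exception at -0.28. Family 35 was singled out after its values were seen.

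The monocarboxylate carriers, which move lactate, ketone bodies and short-chain fatty acids, showed no gene past the screen among 6 measured (2 higher, 4 lower, median -0.15). Slc16a1, the butyrate and lactate carrier of the colonic epithelium, had intensities of 12304 and 12193 in the control samples and of 11372 and 9999.9 in the MSCT samples. The difference of -0.20 (standard error 0.19) was small, although the control and MSCT values were separate. Slc16a6, which carries ketone bodies, had intensities of 254 and 262 in the control samples and of 351 and 484 in the MSCT samples (0.68, standard error 0.24, limma adjusted p = 0.400) and was the only gene of the group with an unadjusted p under 0.05. Slc16a13 had the lowest difference, -0.47 (limma adjusted p = 0.481).

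In the phosphate group, 1 of 7 measured genes fell and 1 rose. Substrate groups mostly follow the substrate that a family is named for. The 7 therefore include 3 genes of family 17, among them Slc17a7, and are not all phosphate carriers. Slc20a1 (NM_031148), a sodium-phosphate cotransporter of most cells, had intensities of 18946 and 16824 in the control samples and of 8193 and 8820.5 in the MSCT samples. Its replicates lay close together, and both MSCT arrays were below the control arrays. It fell 2.10-fold (log2 difference -1.07, standard error 0.19, limma adjusted p = 0.267), with a range from -1.16 to -0.98 when single arrays were left out. Its value of -0.98, just under 2-fold, was found without control replicate 1. Slc34a2 (NM_053380), the sodium-phosphate cotransporter of absorptive and secretory epithelia, had intensities of 69.9 and 113 in the control samples and of 177 and 269 in the MSCT samples. It rose 2.46-fold (1.30, standard error 0.36, limma adjusted p = 0.338) from low values, with the row in the lowest 25% by mean intensity, and was under 2-fold without control replicate 1 (0.95) or MSCT replicate 2 (0.997). Slc20a2, which serves the same function as Slc20a1, differed by 0.24 (standard error 0.21). The other 4 genes differed by -0.14 to 1.22. The highest of these, the vesicular glutamate carrier Slc17a7, had intensities of 59.4 and 543 in the control samples and of 333 and 526 in the MSCT samples, with control replicate 1 alone low.

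Among 27 carriers of organic ions, bile acids and amines, 14 were higher and 13 lower (median 0.03), with 3 that fell and 1 that rose. Slco4a1 (NM_133608), an organic anion carrier that takes up thyroid hormones, had intensities of 625 and 670.5 in the control samples and of 396 and 224 in the MSCT samples and fell 2.18-fold (-1.12, standard error 0.33, limma adjusted p = 0.347). Slc22a6 (NM_017224), an organic anion carrier best known from the kidney, had intensities of 232 and 357 in the control samples and of 101 and 164 in the MSCT samples (-1.16, standard error 0.36, limma adjusted p = 0.362). Slc10a5 (NM_001025280), an orphan of the bile acid carrier family, had intensities of 644 and 1114 in the control samples and of 389 and 447 in the MSCT samples (-1.02, standard error 0.33, limma adjusted p = 0.368). These 3 falls were not stable. With single arrays left out the difference reached -0.71 for Slco4a1 (without MSCT replicate 2), -0.81 for Slc22a6 (without MSCT replicate 1) and -0.63 for Slc10a5 (without control replicate 2), all under 2-fold.

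All 5 measured members of the organic anion transporting family Slco were lower in the MSCT group, also after quantile normalization and with equal array medians, and this family was likewise singled out after its values were seen. Beside Slco4a1, the differences were -0.99 for Slco1c1, -0.60 for Slco2a1, which takes up prostaglandins, -0.59 for Slco2b1 and -0.45 for Slco3a1. None of these 4 had an unadjusted p under 0.05, and their limma adjusted p lay between 0.435 and 0.635. Slc22a5, the carnitine carrier of the plasma membrane, had intensities of 5754 and 5874 in the control samples and of 3397 and 4126 in the MSCT samples (-0.63, standard error 0.20, limma adjusted p = 0.368). Slc25a20, which takes acylcarnitine into mitochondria, had intensities of 2153 and 1923 in the control samples and of 3488 and 3022 in the MSCT samples and was higher (0.67, standard error 0.20, limma adjusted p = 0.350).

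Slc18a1 (NM_013152), the carrier that loads monoamines into the vesicles of endocrine cells, had intensities of 271 and 154 in the control samples and of 726 and 471 in the MSCT samples. It rose 2.86-fold (1.52, standard error 0.39, limma adjusted p = 0.324), with 1.11 to 1.92 when single arrays were left out. It remained over 2-fold in these fits but was not past the limit on p without control replicate 2 or MSCT replicate 1. The serotonin uptake carrier Slc6a4, described above, was lower on the same arrays. Whether the difference of these genes differed from each other was not tested. Carriers of cholinergic nerves did not pass the screen. The choline carrier Slc5a7 had intensities of 551 and 770.5 in the control samples and of 265 and 542 in the MSCT samples (-0.78, limma adjusted p = 0.528), and Slc18a3, which loads acetylcholine into vesicles, differed by 0.10 (standard error 0.51).

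Among 18 carriers of inorganic anions, protons and bicarbonate, Slc12a8 rose and Slc9a5 fell (median 0.05). Slc12a8 (NM_153625), of the cation-chloride cotransporter family, had intensities of 1291 and 1122 in the control samples and of 5954 and 4169 in the MSCT samples. Both MSCT arrays lay far above both control arrays. It rose 4.14-fold, the largest rise of the 175 carriers (log2 difference 2.05, standard error 0.26, limma adjusted p = 0.257), and remained past the screen with each array left out (1.79 to 2.31). The other 4 measured genes of this family differed by -0.04 (Slc12a9), 0.06 (Slc12a4), 0.15 (Slc12a5) and 0.55 (Slc12a3). Slc9a5 (NM_138858), a sodium-proton exchanger found mainly in nerve tissue, had intensities of 631 and 261 in the control samples and of 136 and 115 in the MSCT samples. It fell 3.24-fold (-1.70, standard error 0.47, limma adjusted p = 0.338), but the control arrays lay far apart, and the difference was -1.06 without control replicate 1. Slc9a5 was not past the limit on p without MSCT replicate 2.

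Metal and divalent cation carriers had a median difference of 0.10 over 18 genes. Slc39a8 (NM_001011952), which takes up zinc and manganese, had intensities of 355 and 671 in the control samples and of 1237 and 1341 in the MSCT samples. It rose 2.64-fold (1.40, standard error 0.36, limma adjusted p = 0.324), and the difference was 0.94 without control replicate 1, the lower of the control arrays. The related Slc39a4, the main zinc carrier of the intestinal border, differed by 0.07 (standard error 0.19). Slc8b1, the sodium-calcium exchanger of mitochondria, had intensities of 6193 and 5358 in the control samples and of 2659.8 and 3129 in the MSCT samples. Its difference of -0.998 (standard error 0.21, limma adjusted p = 0.290) lay just outside the limit of 2-fold, whereas Slc10a5 at -1.02 lay just inside.

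Of 21 mitochondrial carriers, none passed the screen, and the group had the narrowest range of differences of any group with over 10 genes, from -0.72 to 0.67. The adenine nucleotide carrier Slc25a5 had intensities of 35845 and 40936 in the control samples and of 37903 and 38002 in the MSCT samples (-0.01, standard error 0.19), and the phosphate carrier Slc25a3 differed by -0.02. Slc25a14, an uncoupling protein homolog, had intensities of 588 and 444 in the control samples and of 288 and 336 in the MSCT samples (-0.72, limma adjusted p = 0.380).

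The remaining 19 genes carry nucleosides, vitamins and lipids, and 1 of them rose and 1 fell. Slc27a2 (NM_031736), which takes up and activates long-chain fatty acids, had intensities of 105 and 229 in the control samples and of 755 and 454 in the MSCT samples. It rose 3.77-fold (1.91, standard error 0.49, limma adjusted p = 0.324), and passed the screen with each array left out, at 1.35 without control replicate 1, the lowest of these values. Slc52a3 (NM_001037198), the riboflavin carrier of the intestinal border, had intensities of 3795 and 2066 in the control samples and of 1393 and 1258 in the MSCT samples. It fell 2.12-fold (-1.08, standard error 0.35, limma adjusted p = 0.369), and the difference was -0.64 without control replicate 1, the higher of the control arrays. Slc52a3 also missed the screen without either MSCT array. Of the 7 measured vitamin carriers, a list made after the values were seen, 5 were lower. Slc23a2, a vitamin C carrier, had intensities of 875 and 805 in the control samples and of 498 and 501 in the MSCT samples (-0.75, standard error 0.18, limma adjusted p = 0.324), the replicates being nearly equal. Slc5a6, for biotin and pantothenate, had intensities of 16262 and 12754 in the control samples and of 9460.2 and 9778 in the MSCT samples (-0.58, limma adjusted p = 0.413). Slc46a1, the proton-coupled folate carrier, differed by -0.90 (limma adjusted p = 0.472), and the reduced folate carrier Slc19a1 by 0.54 (limma adjusted p = 0.431). Slc28a2, which takes up purine nucleosides with sodium, had intensities of 383 and 376 in the control samples and of 739 and 704 in the MSCT samples (0.93, standard error 0.18, limma adjusted p = 0.289), with replicates close together and the groups apart.

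A list of 23 absorptive carriers of the small intestine had 16 measured members, of which 12 were higher, with a median of 0.18. Slc34a2 rose and Slc36a1 fell, and Slc28a2 had a p under 0.05. Slc15a1, the peptide carrier of the border, had intensities of 5480.1 and 3039.5 in the control samples and of 2187 and 3438 in the MSCT samples (-0.57, limma adjusted p = 0.607), with overlapping groups. Slc2a5, for fructose, differed by 0.21, Slc7a9 by 0.58, Slc7a8 by 0.36, Slc7a7 by 0.20, Slc1a1 by 0.22, Slc6a20a by 0.16, Slc23a1 by 0.16 and Slc22a18 by 0.03. Slc2a2, Slc5a1, Slc39a4 and Slc46a1, given elsewhere, make up the rest. The 5 members Slc10a2, Slc13a1, Slc28a1, Slc3a1 and Slc6a19 were blank on all 4 arrays. Of 16 carriers of the colonic surface, 9 were measured, 4 of them higher, with a median of -0.20. Slc20a1 fell, Slc22a5 had a p under 0.05, and others were Slc26a2 (-0.42), Slc4a7 (-0.28), Slc16a1, Slc4a2 (0.19), Slc6a14 (0.32) and the sodium-bicarbonate cotransporter Slc4a4 (0.75, limma adjusted p = 0.499).

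The proteins that drive or anchor carriers were described with a list of 34 genes, 30 of them measured (14 higher, 16 lower, median -0.01). The sodium pump subunit Atp1b1 differed by -0.11, and Bsg, the partner of the monocarboxylate carriers, by 0.12. Nherf2, a scaffold that holds carriers at the epithelial border, had intensities of 483 and 789.8 in the control samples and of 1521 and 1795 in the MSCT samples and rose 2.67-fold (1.42, standard error 0.31, limma adjusted p = 0.295). Fxyd3, a regulator of the sodium pump, had intensities of 1379.9 and 1937 in the control samples and of 3577 and 3229 in the MSCT samples and rose 2.08-fold (1.06, standard error 0.25, limma adjusted p = 0.311). Fxyd3 was under 2-fold without control replicate 1 (0.81) and without MSCT replicate 1 (0.98), whereas Nherf2 stayed over it in every fit. No gene of the list fell. The kinases Sgk1 and Wnk1, which regulate carriers of salt, were lower by less than 2-fold (-0.72 and -0.79, limma adjusted p = 0.337 and 0.344). The kinase Wnk4 went the other way (0.56, limma adjusted p = 0.386), with both MSCT arrays above the control arrays. Stk39, also of the list, differed by -0.20 with overlapping groups. Atf4, a factor that induces amino acid carriers, had intensities of 19438 and 14995 in the control samples and of 17182 and 16865 in the MSCT samples (-0.0043).

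With single arrays left out, 3 of the 14 genes past the screen passed it every time, Slc36a1, Slc12a8 and Slc27a2. No difference of the 14 changed sign in these fits. The number of carriers past the screen went both below and above 14, depending on the array left out. Genes past the screen were found at every intensity, with 3, 5, 3 and 3 carriers from the dimmest to the brightest 25% of rows. These were 8.11%, 11.4%, 7.32% and 5.66% of the carriers in each 25%, where 6.28%, 6.87%, 3.88% and 1.5% of all rows passed. When the variance was allowed to depend on intensity (trend and robust options of limma), 6 carriers passed an adjusted p of 0.05 over all rows, namely Slc36a1, Slc20a1, Slc8b1, Slc35e4, Slc6a6 and Slc12a8, against 2.11% of all rows. Without the lower 50% of rows, 5 of the 94 carriers left passed it (the same genes except Slc6a6), against 2.69% of the rows left. Without the lower 25% of rows, 0 of the 138 carriers left passed it, against 0.0291% of the rows left.

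**Figure D4:**
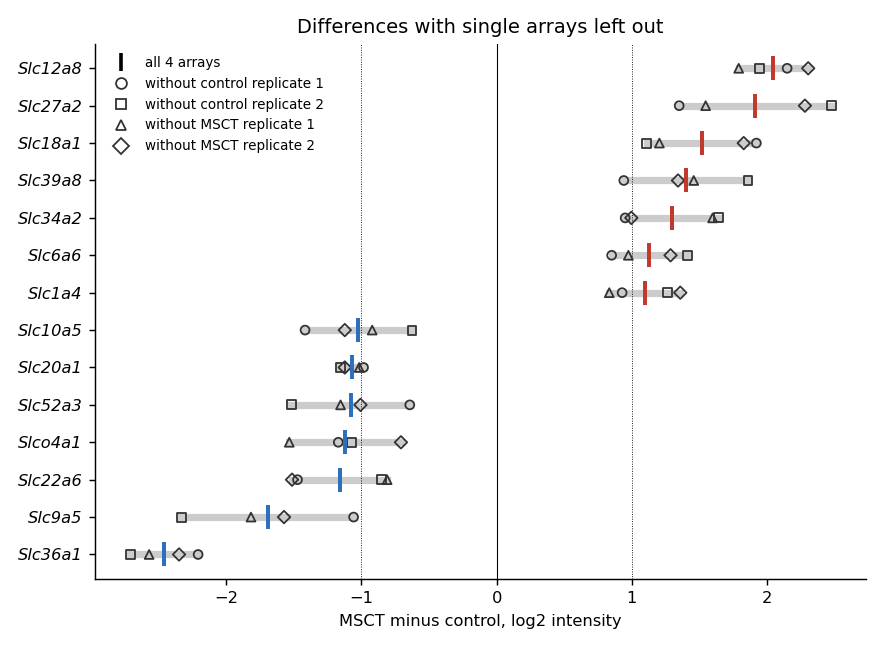
Difference between the MSCT and control groups in log2 intensity of the 14 solute carrier genes past the screen, with all 4 arrays (colored bar) and with each array left out (open symbols), and the range over these fits in grey. Dotted lines mark 2-fold. Slc36a1, Slc9a5, Slc18a1, Slc27a2 and Slc12a8 stay beyond 2-fold in every fit, and Slc20a1 has the narrowest range.

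Markers of other cell types differed between the groups on the same arrays. All 6 measured of 8 T and NK cell markers were higher, 3 of them past the screen (Nkg7, Zap70 and Gzmb). The other 3 overlapped between the groups, with Cd8a at 0.006, Cd3g at 0.13 and Cd4 at 0.37. Of the 6 rows, 5 lay in the lowest 25% by mean intensity. The summed log2 level of the 6 was 10.02 and 9.80 in control, against 10.99 and 10.81 in MSCT. Of 8 macrophage and granulocyte markers, 4 were measured and 3 were higher, 2 of them past the screen (summed level 13.52 and 13.69 in control, 13.77 and 13.98 in MSCT). Of 10 enteric nerve and glia markers, all measured, 8 were lower, 1 of them past the screen (13.84 and 13.73 in control, 13.30 and 13.35 in MSCT). Of 6 markers of B and plasma cells, 1 was measured, and it rose (6.79 and 6.64 in control, 8.02 and 7.93 in MSCT). The mast cell list, with 3 of 6 measured and 1 past the screen, was at 10.00 and 9.65 in control and 11.81 and 11.36 in MSCT. Among the 3 measured members that rise was of Mcpt1 alone (4.41), as Kit differed by 0.18 and Tpsab1 by -0.09. Nothing can be said of the members without a value. The study lists both Mcpt1 and Mcpt2 among its most strongly raised genes. Whether it gives the row read here the same name was not tested. Smooth muscle markers (5 of 8 measured, 17.11 to 17.39 in control, 17.24 and 17.28 in MSCT) and epithelial markers (8 of 10 higher, 17.34 and 17.42 in control, 17.54 and 17.50 in MSCT) differed less. Endothelial and fibroblast markers (5 of 9 measured, all 5 higher) were at 15.01 and 14.51 in control and 15.24 and 15.32 in MSCT. The groups lay apart for the collagens Col1a2 (0.62) and Col3a1 (0.78). They overlapped for Pecam1 (0.29), Kdr (0.05) and Dcn (0.007), and none of the 5 passed the screen. Blank on all 4 arrays were 1 T and NK cell marker, 1 B and plasma cell marker, 2 macrophage and granulocyte markers and 1 mast cell marker. The part of these cell types in the differences of the carriers was not tested.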

How the data were processed

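Total RNA of colon tissue of male rats (4 samples, 2 control and 2 MSCT) was hybridized to 1-color NimbleGen rat expression arrays labelled with Cy3. The authors scanned the arrays and extracted data with NimbleScan version 2.6, and the deposited values are normalized linear intensities, 1 per row and array. RMA is named in the submitters' processing notes, and its settings are not given in the sources used here. Of 26420 rows, 8070 were blank on all 4 arrays and 18350 had a value on all 4. The number of arrays limits the precision.

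Rows were named through their RefSeq transcript in the RefSeq gene table (assembly GRCr8). Intensities were taken to log2 and fitted over all 18350 rows with lmFit and eBayes of limma 3.58.1 (R 4.3.3), MSCT minus control, with Benjamini-Hochberg adjustment over all rows. Tables and figures were made with Python 3.11.15. The members, substrate groups and gene lists were chosen with earlier results of these data known, so they are no independent evidence. Genes named by rule (44) were those past the screen, the extremes of each main substrate group, the measured members of the absorptive and colonic surface lists and partner genes past the screen. Slc6a4, Slc7a5, Slc3a2, Slc1a5, Slc15a4, Slc23a2, Slc5a6, Slc35a3, Slc35e4 and the other genes outside that rule were named after their values were seen. Alternatives were quantile normalization, equal array medians, filters on dim rows, other variance models, a replicate block, the methods' t-test, log2(value + 50), another row per gene, a fold limit of 1.5, the adjusted p alone and leaving out each array. A few genes are not reported here, although counts and medians include them. The fit was tested on simulated data.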

Additional observations from a re-analysis of the deposited data

How the results depend on the processing

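The 14 carriers past the screen (7 higher, 7 lower, median difference 0.11) became 6 (3 higher, 3 lower, median 0.045) without the lower 50% of rows, where fewer genes were tested, 3 (1 higher, 2 lower) by the methods' t-test, 11, of which 4 lower, on log2(value + 50), and 27 (15 higher, 12 lower) with a fold limit of 1.5. By the adjusted p alone the count was 0 (0 higher, 0 lower), although 28 carriers had an unadjusted limma p under 0.05 (20 in the plain t-test). With single arrays left out the counts ran from 9 to 24 (control replicate 1 and control replicate 2 left out), for higher genes from 4 to 19, for lower genes from 4 to 9, and the median from 0.014 to 0.14. In these fits the lone array is assumed to vary like the other group. Of the 14 genes, 13 were kept after quantile normalization and with equal array medians, Slc10a5 being lost. No difference past the screen changed sign under any alternative. With an array left out, 61 of the 175 differences changed sign, none of them past the screen with all arrays. Among genes named by rule, the log2 differences that changed sign ran from -0.38 to 0.80 for Slc2a5, -0.10 to 0.55 for Slc1a1, -0.18 to 0.50 for Slc23a1 and -0.00049 to 0.15 for Slc39a4. The cause of these changes was not tested. Group medians kept their sign for sugar, amino acid and metal carriers, whereas those of the phosphate, organic ion, monocarboxylate, mitochondrial, inorganic anion and vitamin groups changed sign with single arrays left out. Same-numbered arrays deviated together only weakly (correlation 0.23 over rows, with 2 pairs), and nothing in the labels ties equal numbers to shared animals or batches. With the replicate number as a block, 15 carriers passed the screen (8 higher, 7 lower), all 14 of the above among them. Apart from the methods' t-test and the adjusted p, no share of all rows past the screen is given for these alternatives. Their counts therefore describe the carriers alone.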

Other observations

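The 19 carriers that were more than 2-fold lower in control replicate 1 than in control replicate 2 all had a low mean intensity. That mean includes the low array itself, and not all of these genes were dim on the other arrays. Slc38a3 and Slc2a2 lay above the array median on every array except control replicate 1. The examples below were singled out after their values were seen. Slc10a1, which takes up bile acids in hepatocytes, had a log2 intensity of 6.66 in control replicate 1, 8.21 in control replicate 2, 8.24 in MSCT replicate 1 and 8.38 in MSCT replicate 2. The fatty acid and bile acid gene Slc27a5 had 6.73, 8.79, 8.06 and 8.41 in the same order. Slc22a3, an organic cation carrier, had 7.73, 9.35, 9.77 and 9.85. In Slc10a1, Slc27a5 and Slc22a3 control replicate 1 was the lowest of the 4 arrays and the other arrays lay closer together. Of the 19 genes only Slc27a2 passed the screen. Gaps of more than 2-fold were found in 13.1% of carriers and 8.73% of all rows between the control arrays, and in 8.57% of carriers and 7.49% of all rows between the MSCT arrays. Slc10a6, a carrier of sulfated steroids, ran the other way, with 8.24 in control replicate 1, 6.72 in control replicate 2 and 8.92 and 8.77 in the MSCT arrays.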
